A study of Homo sapiens with 4 samples.

Results

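The cluster of miR-221 and miR-222 is a pair of neighbouring human miRNA genes whose mature products were read here without being transfected. Its 4 mature miRNAs, hsa-miR-221-5p, hsa-miR-221-3p, hsa-miR-222-5p and hsa-miR-222-3p (below without the species prefix), were taken by name, and all 4 were found among the 1644 miRNA names counted in the series. They account for 145 of the 12689 isoforms counted, where an isoform is a miRNA with a given 5p start and 3p end. Small RNA was sequenced from HCT116, an established human cell line grown from a colorectal carcinoma, in 4 libraries, 1 for each plasmid mixture given with a lipid reagent. The study asked how features of pri-miRNAs, the primary transcripts of miRNA genes, set how well and at which place DROSHA cuts them. The empty vector library came from cells given pcDNA3 alone. The wild-type mixture held plasmids of pri-mir-30a, pri-mir-142, pri-mir-30d, pri-mir-576, pri-mir-885, pri-mir-128-1, pri-mir-342 and pri-mir-200b, each with its natural sequence. In the mutant 1 mixture each of these was replaced by a variant, and the mutant 2 mixture combined the midM_910 variant of pri-mir-342 with pcDNA3. A plasmid of pri-mir-16-1 was in every mixture except the empty vector. Which mixture is mutant 1 and which is mutant 2 was read from their order in the study's list. Reads with the midM_910 3p sequence of miR-342 numbered 47789 for mutant 2 and 1 for mutant 1, and reads with the variant miR-30a-5p sequence numbered 29 and 516138. The mutant 2 library also held 65088 reads of a miR-128-1 variant and 5966 reads of a let-7d variant that the list does not place in that mixture. The mutant 1 library likewise held 290 reads of another let-7d variant and 155 reads of a miR-182 variant. The deposited plasmid sequences also include pri-let-7d, pri-mir-182 and pri-mir-513b, which the list does not name. None of the plasmid sequences encodes a member of the cluster.

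In miRNA biogenesis DROSHA cuts the primary transcript at the base of a hairpin, DICER then removes the loop, and one arm of the resulting duplex, the guide, is kept in an Argonaute protein while the passenger arm is mostly lost. The seed near the 5p end of the guide pairs with target mRNAs, so a shifted 5p start gives another seed. The 3p arms of miR-221 and miR-222 are the usual guides, and they are known as repressors of the cell cycle inhibitor CDKN1B (p27) and of the receptor KIT, and as abundant miRNAs of many carcinoma lines.

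Mature sequences for 3 of the 4 members were taken from RefSeq (GRCh38.p14). They are shown because the seed sets the family and the ends set the isoforms described below, with the seed, bases 2 to 8, in capitals. The first pair shares its seed, and no other mature miRNA among the 2370 names of that set has it.
miR-221-3p: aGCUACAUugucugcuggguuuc
miR-222-3p: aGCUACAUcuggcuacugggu
The passenger arm of miR-222 has a seed that no other mature name of the set has.
miR-222-5p: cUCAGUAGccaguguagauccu

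The 2 guides have the same first 8 bases and differ after them, up to a shared stretch of 6 bases, CUGGGU, near the 3p end. The annotated miR-221-3p runs 3 bases past this stretch, whereas the annotated miR-222-3p stops at its last base. Both hairpins lie on the minus strand of chromosome X, MIR221 at chrX:45746157-45746266 and MIR222 at chrX:45747015-45747124, with 748 bases between them. In the GENCODE annotation both are within the lncRNA gene MIR222HG, in intron 1 of its transcript MIR222HG-201. The last 24 bases of the MIR221 hairpin also overlap the exon of transcript MIR222HG-203. Each of the 3 mature sequences had 1 exact match in the chromosomes of hg38. The MIR222 hairpin is given in full, with the annotated arms in capitals, because the shift of 5p starts described below lies in it.
MIR222: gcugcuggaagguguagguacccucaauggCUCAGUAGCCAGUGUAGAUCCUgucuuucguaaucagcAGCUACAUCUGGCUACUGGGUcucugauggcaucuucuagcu

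The libraries held 14544516 miRNA reads for the empty vector, 17364117 for wild type, 19834361 for mutant 1 and 17136599 for mutant 2. Of these, 92.0%, 70.5%, 70.7% and 88.3% came from untransfected miRNAs, the 1608 names that no deposited plasmid sequence encodes. Levels are given as RPM, the reads of a miRNA per 1000000 reads of untransfected miRNAs. They were not divided by length, since a mature miRNA gives a single read. No mixture had a replicate library, so no p-value is given, and the 95% intervals of levels, ratios and shares cover counting error only.

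The labelled cell type was checked against marker miRNAs. All 8 epithelial and colon miRNAs of the list had reads, with summed levels of 27325, 28267, 25214 and 26444 RPM in the order empty vector, wild type, mutant 1 and mutant 2, and miR-141-3p was the most abundant. Within this sum members differed in direction, with miR-192-5p at 3003, 2441, 1791 and 2387 RPM, miR-203a-3p at 1170.2, 1106, 803 and 971 RPM and miR-429 at 1160.1, 1289, 1424 and 1229 RPM. The 2 arms of the endothelial miR-126 summed to 5214, 5037, 3383 and 4189.8 RPM, mostly miR-126-5p. That arm was at 4975, 4751, 3120.4 and 3931 RPM, whereas miR-126-3p was lowest with the empty vector, at 238, 286, 262 and 259 RPM. The 5 mesenchymal miRNAs summed to 319.7, 366, 462 and 376 RPM, almost entirely from a pair whose levels went opposite ways. In the same order of libraries miR-143-3p was at 229, 186, 125 and 164 RPM, and miR-145-5p at 90.7, 180.4, 336 and 212 RPM. The other 3 were near 0, since miR-199a-5p had no read in any library and miR-214-3p and miR-199a-3p had at most 3. The 5 blood miRNAs summed to 14.0, 13.8, 17.4 and 16.8 RPM, led by miR-486-5p. The part of these differences in the results on the cluster was not tested.

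The 4 members of the cluster together gave 546392 reads for the empty vector, 533535 for wild type, 578965 for mutant 1 and 669537 for mutant 2. These were 4.08%, 4.36%, 4.13% and 4.42% of the reads of untransfected miRNAs. The guide miR-222-3p led the cluster in every library, with 21695 RPM for the empty vector, 24182 for wild type, 23062 for mutant 1 and 25623 for mutant 2. It ranked 9, 8, 7 and 8 among untransfected miRNAs. The guide miR-221-3p followed with 18256, 18640.3, 16815 and 17680.4 RPM in the same order, at rank 13 with the empty vector and 12 in the other libraries.

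The passenger arms were lower and differed from each other. The passenger miR-221-5p was read at 842 RPM for the empty vector (95% interval 826 to 857), 721 for wild type (706 to 736), 1359 for mutant 1 (1340.2 to 1379) and 902 for mutant 2 (887 to 917). It was highest in the mutant 1 library and lowest in the wild-type library, and no pair of these intervals overlapped. The passenger miR-222-5p was read at 40.0 RPM (36.7 to 43.5), 39.5 (36.1 to 43.2), 38.0 (34.8 to 41.4) and 34.4 (31.5 to 37.5) in the same order. These intervals overlapped, though the ratio of mutant 2 to empty vector was 0.861 with an interval (0.763 to 0.971) that leaves out 1. It rests on 484 to 535 reads per library. The order of the 4 members was the same in all 4 libraries, miR-222-3p, miR-221-3p, miR-221-5p and miR-222-5p.

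For scale, the miRNAs next to each member in the empty vector library were named by rank. The next above and below miR-222-3p were miR-31-5p, at 23868 RPM, and miR-22-3p, at 21138. Around miR-221-3p stood miR-25-3p at 18837 and miR-98-5p at 16039.5. The neighbours of miR-221-5p were miR-31-3p at 843 and miR-335-3p at 802, and those of miR-222-5p were miR-125a-3p at 40.3 and miR-542-3p at 39.8. In the wild-type, mutant 1 and mutant 2 libraries miR-31-3p was at 1406, 1490.3 and 1357 RPM, so it was high in all 3, whereas miR-221-5p was high in the mutant 1 library and lowest in the wild-type library. In the same order miR-335-3p was at 946, 822 and 999 RPM.

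The comparisons between mixtures ask whether miRNAs that the plasmids do not encode kept their level. The summed level of the cluster in the wild-type library was 1.07 times that with the empty vector (1.06 to 1.07). The ratio was 1.01 (1.01 to 1.01) for mutant 1 to empty vector, 1.08 (1.08 to 1.09) for mutant 2 to empty vector and 0.947 (0.944 to 0.951) for mutant 1 to wild type. The comparisons to the empty vector share that library. The direction of these ratios depended on the scaling. With the study's own scale, miR-16-5p, the ratios to the empty vector became 0.520, 0.488 and 0.442. The reads of miR-16-5p, which pri-mir-16-1 encodes, were 16944 RPM with the empty vector and 34753, 35128 and 41556 in the wild-type, mutant 1 and mutant 2 libraries. That scale moved the median log2 ratio of all untransfected miRNAs to -0.95, -1.07 and -1.24, from 0.09, -0.02 and 0.06. Taken relative to this median, a difference that is the same under any scaling of a whole library by 1 factor, the log2 ratio of the cluster was 0.01 for wild type, 0.03 for mutant 1 and 0.06 for mutant 2, and 0.07 for mutant 1 to wild type. It was not the same when each read length was scaled by the other untransfected miRNA reads of that length (length-matched scaling, chosen after seeing the data). Over 427 untransfected miRNAs of known length the difference was then 0.02, -0.12 and -0.01 to the empty vector, and -0.12 for mutant 1 to wild type.

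No member passed 2-fold in any of the 4 comparisons. Of the 476 untransfected miRNAs whose mean was 50 reads or more, 1.89% passed 2-fold between wild type and empty vector, 3.99% between mutant 1 and empty vector, 1.68% between mutant 2 and empty vector and 2.31% between mutant 1 and wild type. With a minimum of 200 reads, which every member passes, these shares were 0.322%, 1.93%, 0.965% and 0.322% of 311 miRNAs, and with a minimum of 10 reads they were 8.24%, 10.7%, 6.82% and 9.52% of 777. The guides moved little. The log2 ratio of miR-222-3p to the empty vector was 0.16 for wild type, 0.09 for mutant 1 and 0.24 for mutant 2, and that of miR-221-3p was 0.03, -0.12 and -0.05. For miR-222-5p it was -0.02, -0.07 and -0.22. The SD of this log2 ratio over the 476 miRNAs was 0.40, 0.50 and 0.42 in the same order. These small differences turned direction under some scalings. For mutant 1 to empty vector the ratio of miR-222-3p was 1.06, but 0.930 with length-matched scaling. That of miR-221-3p for wild type to empty vector was 1.02, but 0.951 by edgeR's TMM and 0.948 by DESeq2's median of ratios.

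The member with the widest range was miR-221-5p. Its level was 0.857 times that of the empty vector for wild type (0.833 to 0.881), 1.62 times for mutant 1 (1.58 to 1.65) and 1.07 times for mutant 2 (1.05 to 1.10). Between mutant 1 and wild type the ratio was 1.89 (1.84 to 1.93), a log2 ratio of 0.91. Of the 476 untransfected miRNAs, miR-574-5p was higher in that comparison, at 2.56 (1.42 to 4.60), but the order is within counting error, with miR-19b-3p at 1.88 (1.53 to 2.31) and miR-145-5p at 1.86 (1.77 to 1.96). These were named after their values were seen. Under scaling by TMM, by DESeq2's median of ratios or without the 10 most abundant untransfected miRNAs, the ratio of miR-221-5p passed 2-fold, at 2.19, 2.16 and 2.07. The median log2 ratio of the untransfected miRNAs was -0.15 in this comparison, and miR-221-5p lay 1.07 above it. Its ratio of mutant 1 to empty vector stayed above 1 under each scaling except miR-16-5p, where it was 0.779. Its ratio of mutant 2 to empty vector fell below 1 under that scaling, at 0.437, and with length-matched scaling, at 0.979.

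The read lengths of miR-221-5p were compared next. The most abundant isoform of miR-221-5p ran 4 nt past its annotated 3p end and was 26 nt long, the longest read that the authors kept. The lengths of this arm rest on an annotated length of 22 nt, which was inferred from the 18 to 26 nt limits of the counted isoforms because no reference sequence was used for it. The main isoform made up 73.5% of the reads of the arm for the empty vector (72.6 to 74.3%), 70.5% for wild type (69.6 to 71.5%), 75.7% for mutant 1 (75.1 to 76.3%) and 73.8% for mutant 2 (73.0 to 74.5%). Any longer reads of this arm were removed before counting, so the level of the arm is a lower limit. Reads of 26 nt were rare elsewhere. The arm gave 8279 of them in the empty vector library, against 3041 from the other untransfected miRNAs of known length, and 14448 against 4655 in the mutant 1 library.

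The share of 26-nt reads among those other miRNAs was 0.0267% for the empty vector, 0.0252% for wild type, 0.0393% for mutant 1 and 0.0294% for mutant 2. It was thus 1.56 times as high in the mutant 1 library as in the wild-type library, while the share of 18-nt reads was 0.445 times as high. The mean read length was 22.33 nt for the empty vector, 22.33 nt for wild type, 22.45 nt for mutant 1 and 22.38 nt for mutant 2. With length-matched scaling the ratio of miR-221-5p for mutant 1 to wild type was 1.31 in place of 1.89, and for mutant 1 to empty vector it was 1.16 in place of 1.62. In these comparisons 48 and 137 of the 427 miRNAs of known length were then higher than miR-221-5p. The same scaling put miR-222-5p at 1.09 for mutant 1 to empty vector, in place of 0.950, whose interval (0.843 to 1.07) includes 1. For the summed cluster it gave 0.940 in place of 1.01 for mutant 1 to empty vector. Among reads of at most 25 nt, the ratio of miR-221-5p for mutant 1 to wild type was 1.55 (1.48 to 1.63), and among reads of 26 nt it was 2.02 (1.97 to 2.09). The part of read length in the level of miR-221-5p was not otherwise tested.

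Arm use was compared within each library, where a scaling of the whole library by 1 factor cancels. The arms of miR-221 differ in read length, which such a factor does not cover. With the empty vector the mean length was 25.45 nt for miR-221-5p and 22.17 nt for miR-221-3p. The 3p arm of miR-221 made up 95.6% of the reads of the hairpin for the empty vector (Wilson 95% interval 95.5 to 95.7%), 96.3% for wild type (96.2 to 96.4%), 92.5% for mutant 1 (92.4 to 92.6%) and 95.1% for mutant 2 (95.1 to 95.2%). This was 21.7, 25.8, 12.4 and 19.6 reads of the 3p arm for each read of the 5p arm. The share was lowest in the mutant 1 library, 3.07 points below the empty vector, whereas the median move of 116 untransfected hairpins with at least 1000 reads in each library was 0.604 points. Of these hairpins, 33 moved further than miR-221. With length-matched scaling, chosen after seeing the data, miR-221-5p was at 1.16 times the empty vector in the mutant 1 library, in place of 1.62. For miR-221-3p the value was 0.940 in place of 0.921, so the ratios of the 2 arms then lay closer together. The 3p share itself was not recalculated with that scaling. Without the 26-nt reads, a setting chosen after seeing the data, the 3p share of miR-221 was 98.8%, 98.9%, 98.1% and 98.7%.

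The hairpin of miR-222 was more one-sided. Its 3p arm gave 543 reads for each read of the 5p arm for the empty vector, 612 for wild type, 607 for mutant 1 and 744 for mutant 2. The 3p share was 99.8% for the empty vector, 99.8% for wild type, 99.8% for mutant 1 and 99.9% for mutant 2. With the empty vector 8 of the 116 hairpins had a higher 3p share than miR-222, and 25 had a higher share than miR-221. The guide ratio of miR-222-3p to miR-221-3p reads was 1.19 (1.18 to 1.19) for the empty vector, 1.30 (1.29 to 1.30) for wild type, 1.37 (1.36 to 1.38) for mutant 1 and 1.45 (1.44 to 1.46) for mutant 2. It was lowest with the empty vector and highest in the mutant 2 library, with no overlap of intervals, but the guides differ in read length. At the read lengths of the empty vector library the ratio was 1.33 for wild type, 1.18 for mutant 1 and 1.38 for mutant 2, so that of mutant 1 was then close to the 1.19 of the empty vector. Both the guide ratio and this setting were chosen after seeing the data.

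The ends of the guides were then compared. An offset in the counts was read as nt downstream for the 5p start and as nt lost for the 3p end, because this reading put all 10981 isoforms of the 1460 miRNAs with a single RefSeq length within 18 to 26 nt, against 84.5% to 93.3% for the other 3 readings. Most miR-222-3p reads ended 3 nt past the annotated end. This end took 67.9% of the reads for the empty vector (67.8 to 68.1%), 70.0% for wild type (69.9 to 70.2%), 69.3% for mutant 1 (69.1 to 69.4%) and 68.5% for mutant 2 (68.4 to 68.7%). Reads that ended 2 nt past it took 19.0%, 16.6%, 17.6% and 18.1%, and those 4 nt past it took 8.90%, 9.01%, 9.18% and 9.10%. The isoforms are set out below as the genomic bases between their ends, with bases past the annotated end in capitals. The first is the main isoform, and the second is the annotated form, which had 4402 reads against 194386 with the empty vector. The counts give ends only and mismatches at the 3p end were allowed, so the bases read past the annotated end are not known.
miR-222-3p, 24 nt: agcuacaucuggcuacuggguCUC
miR-222-3p, 21 nt: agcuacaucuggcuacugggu

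Counted from the shared CUGGGU stretch, the main end of miR-222-3p thus lay 3 bases past it, at the same distance as the annotated end of miR-221-3p. Reads of miR-221-3p most often stopped 1 nt before that annotated end. This shorter end took 48.1% of the reads for the empty vector (47.9 to 48.3%), 44.7% for wild type (44.5 to 44.9%), 43.4% for mutant 1 (43.2 to 43.6%) and 44.0% for mutant 2 (43.8 to 44.2%). The annotated end took 34.1% (33.9 to 34.3%), 37.9% (37.7 to 38.1%), 42.6% (42.4 to 42.8%) and 40.6% (40.4 to 40.7%) in the same order. The share that reached the annotated end was lowest with the empty vector and highest in the mutant 1 library, which also had the longest reads among the other untransfected miRNAs (mean 22.45 nt). The mean was 22.33 nt both for the empty vector and for wild type, whose shares at the annotated end differed. The part of that shift in the ends of miR-221-3p was not tested.

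The main isoform of an arm was taken as the most abundant pair of ends in the empty vector library. Between mutant 1 and wild type, 1 of the 3 members with at least 1000 reads in both libraries, miR-221-5p, had a main isoform share that moved by over 5 points (5.20 points), as did 22.2% of 167 untransfected miRNAs. In the comparisons to the empty vector none of the 3 did, against a background of 6.59% for the wild-type, 26.3% for the mutant 1 and 9.41% for the mutant 2 library. The fourth member, miR-222-5p, had fewer reads than this minimum and was not called. Its main isoform share moved by -8.39 points for wild type, -18.0 for mutant 1 and -10.0 for mutant 2 to the empty vector. Between mutant 1 and wild type it moved by -9.63 points. The comparison of 5p starts below has a lower minimum, 400 reads, which this arm passes.

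The 5p starts, which set the seed, were the annotated ones in nearly all reads of 3 members. Reads at the annotated start made up 98.7% of miR-221-3p for the empty vector, 98.7% for wild type, 98.9% for mutant 1 and 98.8% for mutant 2. For miR-222-3p they made up 98.7%, 98.8%, 98.9% and 98.8%, and for miR-221-5p 98.4%, 98.1%, 98.4% and 98.2%. The seeds printed for the guides were thus those of nearly all of their reads.

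The passenger miR-222-5p had 2 leading starts, and their shares differed between the libraries. Reads at the annotated start made up 55.9% for the empty vector (51.7 to 60.0%), 45.9% for wild type (41.5 to 50.3%), 32.3% for mutant 1 (28.4 to 36.4%) and 43.6% for mutant 2 (39.4 to 47.9%). Reads that started 2 nt upstream made up 22.8% (19.4 to 26.5%), 39.7% (35.4 to 44.1%), 55.7% (51.5 to 59.9%) and 41.5% (37.3 to 45.7%) in the same order. The annotated start led with the empty vector, the upstream start led in the mutant 1 library, and the wild-type and mutant 2 libraries lay between them with overlapping intervals. The isoforms behind these starts are shown with upstream bases in capitals, first the 21-nt form and then the 23-nt form.
miR-222-5p, annotated start: cucaguagccaguguagaucc
miR-222-5p, 2 nt upstream: GGcucaguagccaguguagaucc

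The upstream start changes the seed from UCAGUAG to GCUCAGU, which is the seed of no mature name in the RefSeq set. The 21-nt form had 256, 191, 159 and 197 reads in the empty vector, wild-type, mutant 1 and mutant 2 libraries, and the 23-nt form had 99, 167, 245 and 178. The number of 23-nt forms for each 21-nt form was 0.387 (0.307 to 0.488), 0.874 (0.710 to 1.08), 1.54 (1.26 to 1.88) and 0.904 (0.738 to 1.11). Another isoform of 23 nt, which starts 4 nt upstream and is not in this ratio, had 43, 22, 29 and 22 reads. It was thus highest with the empty vector. Over the other untransfected miRNAs the number of 23-nt reads for each 21-nt read was 3.33, 3.29, 4.31 and 3.78. This ratio also was highest in the mutant 1 library, though it was about the same in the empty vector and wild-type libraries, and its part in the starts of miR-222-5p was not otherwise tested.

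As levels, the reads with the upstream start were 9.12 RPM for the empty vector, 15.7 for wild type, 21.2 for mutant 1 and 14.3 for mutant 2. Those with the annotated start were 22.3, 18.1, 12.3 and 15.0. The first was thus 2.32 times as high in the mutant 1 library as with the empty vector (1.88 to 2.87), and the second 0.549 times (0.455 to 0.662), while the summed level of the arm was 0.950 times (0.843 to 1.07).

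This shift was set against all untransfected miRNAs with at least 400 reads in both libraries, with a rule of 10 points chosen after seeing the data. Among the members, miR-222-5p was the 1 that passed in each comparison. Between wild type and empty vector its share of annotated starts moved by -10.0 points, and it was the 1 miRNA of 229 to pass (0.437%). That call lies at the limit of the rule, since 1 more annotated-start read among the 484 of the wild-type library would give -9.81 points, which does not pass. Between mutant 1 and empty vector it moved by -23.6 points, and 0.873% of 229 miRNAs passed, the other name being miR-3184-3p at 11.9 points. Between mutant 2 and empty vector it moved by -12.3 points, the 1 miRNA of 242 to pass (0.413%). Between mutant 1 and wild type it moved by -13.6 points, and 0.866% of 231 passed, the other name being miR-219a-5p at 16.0 points. Both were named after their values were seen, and both share reads with a name of the opposite strand. The reads of miR-3184-3p are those of miR-423-5p with the ends exchanged, so its start is the 3p end of miR-423-5p, with 63101 of 63113 reads in isoforms of the same counts. Of miR-219a-5p a smaller part recurs under miR-219b-3p, 790 of 1848 reads. Without the names that share reads in this way, an alternative chosen after seeing the data, miR-222-5p was the 1 miRNA to pass in each comparison, of 215 (0.465%), 215 (0.465%), 226 (0.442%) and 216 (0.463%). For mutant 1 to wild type this rests on leaving out miR-219a-5p, which moved further than miR-222-5p and most of whose reads were not shared. Over all names the median move was 0.234, 0.331, 0.257 and 0.282 points. These names were not matched to miR-222-5p in reads or in their share of annotated starts. The other members, for example, had nearly all of their reads at 1 start and many more reads. How rare such a move is among arms with few reads or 2 leading starts was not tested. The comparisons to the empty vector rest on the same 535 reads of miR-222-5p in that library.

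The 3p end of the same arm was then compared. It lay 1 nt before the annotated end in 72.0% of the miR-222-5p reads for the empty vector (68.0 to 75.6%), 76.7% for wild type (72.7 to 80.2%), 76.7% for mutant 1 (73.0 to 80.1%) and 74.9% for mutant 2 (71.0 to 78.4%), with overlapping intervals. Among reads with the annotated start that end took 85.6% for the empty vector (81.2 to 89.1%), 86.0% for wild type (80.9 to 90.0%), 92.4% for mutant 1 (87.5 to 95.5%) and 86.8% for mutant 2 (81.8 to 90.6%). Among reads with the upstream start it took 81.1% (73.3 to 87.1%), 87.0% (81.5 to 91.0%), 82.5% (77.8 to 86.4%) and 82.4% (76.8 to 86.9%) in the same order. The intervals for the 2 starts were apart in the mutant 1 library, 159 of 172 against 245 of 297 reads, and overlapped in the other libraries.

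The miRNAs nearest to each guide in pattern were found by the root mean square difference of their log2 ratios to the empty vector in the other 3 libraries, over 475 untransfected miRNAs. For miR-221-3p they were miR-3928-3p (0.016), miR-1287-5p (0.025), miR-2115-3p (0.040), miR-27b-5p (0.041) and let-7a-3p (0.044). For miR-222-3p they were miR-148b-3p (0.041), miR-92a-1-5p (0.049), miR-577 (0.054), miR-660-5p (0.058) and miR-34a-5p (0.063). The guides differed from each other by 0.217, which placed miR-222-3p at rank 166 in nearness to miR-221-3p, and miR-221-5p, from the same hairpin, differed from miR-221-3p by 0.497, at rank 384. The passenger miR-222-5p, from the other hairpin, was the nearest member to miR-221-3p, with a difference of 0.105 at rank 39, which is close to its counting error of 0.089. With length-matched scaling, an alternative chosen after seeing the data, the differences from miR-221-3p were 0.203 for miR-221-5p, 0.156 for miR-222-3p and 0.139 for miR-222-5p, at ranks 144, 107 and 85 of 426. The order of the nearest miRNAs is within counting error where reads are few. The mean standard error of a log2 ratio from counting was 0.176 for miR-3928-3p, 0.079 for miR-1287-5p, 0.196 for miR-2115-3p, 0.085 for miR-27b-5p, 0.279 for let-7a-3p and 0.118 for miR-92a-1-5p, in each case above the difference that placed it. These distances rest on 3 ratios with 1 shared denominator and are a description of these libraries.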

How the data were processed

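Adapters were removed by the authors with cutadapt, reads outside 18 to 26 nt or of low quality (FASTX toolkit) were discarded, and Bowtie2 placed the rest on hg38. A read was given to a miRBase locus when its place was unique and any mismatch lay at its 3p end. The values they deposited are raw read counts for each miRNA isoform, without normalization. Reads were summed over isoforms of each arm and scaled by the reads of untransfected miRNAs. Shares have Wilson intervals and ratios normal intervals on the log scale, all at 95%. A count of 0 was raised to 3 reads in ratios. Named miRNAs are the members, miR-16-5p, rank neighbours, nearest patterns, seed sharers and marker lists, besides miR-574-5p, miR-19b-3p, miR-3184-3p, miR-423-5p, miR-219a-5p and miR-219b-3p, named after their values were seen. The members and lists were chosen with earlier results of these data known. Alternative scalings used edgeR 4.0.16 and DESeq2 1.42.0 in R 4.3.3. Other steps used Python 3.11.15, pandas 2.3.3, scipy 1.17.1 and matplotlib 3.10.9. The 2-fold rule on levels and the Wilson intervals were tried on simulated counts that held counting error only. Differences between libraries were not simulated, and the intervals of the ratios were not tried. Read-length scaling, the 25-nt limit, the guide ratio, the rule on 5p starts and the removal of names that share reads were added after the data were seen. Of the 1608 untransfected names, 54 form 27 pairs that share reads, with the 5p and 3p offsets exchanged, and none is a member. At most 0.569% of the untransfected reads of a library were counted under both names.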

Additional observations from a re-analysis of the deposited data

How the results depend on the processing

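Scaling set the cluster's level ratio. For wild type to empty vector it was 0.818 by all miRNA reads, 0.520 by miR-16-5p, 0.994 by TMM, 0.991 by DESeq2 and 1.05 without the 10 most abundant untransfected miRNAs. In the same order it was 0.777, 0.488, 1.10, 1.08 and 1.09 for mutant 1 to empty vector, and 1.04, 0.442, 1.06, 1.05 and 1.10 for mutant 2 to empty vector. For mutant 1 to wild type it was 0.937 by miR-16-5p, 1.10 by TMM, 1.09 by DESeq2 and 1.04 without the 10 most abundant. Length-matched scaling, chosen after seeing the data, gave 0.940 for mutant 1 to empty vector, 1.06 for mutant 2 to empty vector and 0.872 for mutant 1 to wild type. By miR-16-5p, which plasmids in those 3 mixtures encode, members past 2-fold to the empty vector numbered 3 (wild type), 2 (mutant 1) and 4 (mutant 2). Under that scaling the median log2 ratio of the untransfected miRNAs was -0.95, -1.07 and -1.24, itself past 2-fold for mutant 1 and mutant 2. For mutant 1 to wild type 1 member passed by TMM, by DESeq2 and without the 10 most abundant. The share of untransfected miRNAs past 2-fold was not counted under these scalings, so these member counts have no background.

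With 2 points in place of 5, the main isoform moved in 3, 2 and 1 members in the wild-type, mutant 1 and mutant 2 libraries against the empty vector. The median move of the untransfected miRNAs was 1.06, 2.65 and 1.41 points in the same order, so for mutant 1 it was itself over 2 points. With 10 points the main isoform moved in 0 members for mutant 1 to wild type. The shares of untransfected miRNAs past 2 or 10 points were not counted. With 20 points in place of 10, the 5p start moved in 0 members for wild type to empty vector, mutant 2 to empty vector and mutant 1 to wild type. For mutant 1 to empty vector it moved in 1 member, where the largest move of another untransfected miRNA was 11.9 points. From the main isoform of each arm, the 3p share of miR-221 was 93.3%, 94.2%, 87.5% and 92.0% in the empty vector, wild-type, mutant 1 and mutant 2 libraries, and from reads of at most 25 nt 98.8%, 98.9%, 98.1% and 98.7%. That of miR-222 was 99.9% in each library from the main isoform or from annotated starts. With 3p ends within 2 nt of the annotated end, the annotated start of miR-222-5p took 61.4% for the empty vector and 48.3% for mutant 2, beyond the intervals, and 49.7% for wild type and 35.0% for mutant 1, within them. Without a cause shown by the setting itself, the cause was not tested.

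Of 96 member level ratios under alternatives, 23 stayed within their intervals and 73 moved. Of the 96, 26 lay on the other side of 1 from the main ratio, 18 of them where the interval of that ratio leaves out 1. These 26 were 3 by all miRNA reads, 6 by miR-16-5p, 5 by TMM, 5 by DESeq2, 3 without the 10 most abundant and 4 with length-matched scaling. Without a minimum and with 1 read added to each count, 23.8% to 27.2% of untransfected miRNAs passed 2-fold in the 4 comparisons, against 1.68% to 3.99% at a mean of 50 reads. For wild type, mutant 1 and mutant 2 to empty vector and mutant 1 to wild type, the shares at 10 reads were 8.24%, 10.7%, 6.82% and 9.52%, and at 200 reads 0.322%, 1.93%, 0.965% and 0.322%. The results rest on 1 library for each mixture, so differences between transfections or library preparations cannot be told apart from those between mixtures. miR-222-5p has 484 to 535 reads in a library, which gives its shares wide intervals. The 26-nt limit hides longer reads of miR-221-5p.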
